A study of Caenorhabditis elegans with 2 samples.

Results

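The 72 numbered histone genes of Caenorhabditis elegans, out of 19973 protein-coding genes, were examined for chromatin immunoprecipitation (ChIP-seq) peaks of CEH-58, a homeodomain protein. They are the protein-coding genes whose annotated name in Ensembl's WBcel235 gene models begins with his- and a number. Members at most 5 kb from the next one form clusters, which gives 14 clusters of 2 to 13 genes with 67 genes in all, and 5 single genes (his-24, his-71, his-72, his-73 and his-74). The worms were whole young adults of strain OP808 at 65 hours, grown from L1 larvae starved after bleaching. They carry the integrated fosmid transgene wgIs808, which supplies ceh-58 with a TY1, EGFP and 3xFLAG tag, together with unc-119(+) as the rescue of the unc-119(tm4063) mutation. Chromatin sonicated to 200 to 800 bp was precipitated with an anti-GFP antibody in 2 biological replicates, both of this strain. These form 1 group, and no untagged strain or other condition was analysed here, so the histone genes are set beside all protein-coding genes.

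Core histones H2A, H2B, H3 and H4 form the protein spool around which DNA is wound, and linker histone H1 binds the DNA between spools. Most worm histone genes are copies without introns, expressed when DNA is replicated, and lie in clusters as divergent pairs, an H2A gene beside an H2B gene or an H3 gene beside an H4 gene, which share the stretch between their starts. Variant genes such as those of H3.3 are also used outside DNA replication and more often have introns. Because the copies are near identical, reads from them can be placed at more than 1 position of the genome.

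The authors deposited a list of 105945 candidate peaks that compares both replicates, shorter lists of peaks that passed their threshold, and each replicate's own lists. The conservative list holds 483 peaks reproducible between the replicates, the optimal list 732, and the replicates' own thresholded lists 156 and 92 peaks for replicates 1 and 2. Each peak has a signal value, which is the authors' own and has no stated scale, and a summit. The irreproducible discovery rate (IDR) of a candidate estimates the share of irreproducible peaks among those ranked at least as high. No conservative peak had an IDR above 0.00999. A gene's window is the gene and 1 kb either side. Read depth is unknown, and with 1 group no test between conditions was possible, so counts are given with exact Clopper-Pearson 95% intervals, which cover counting error only. Beside a count of 0 the limit given is 3 counts of the total, not the interval's bound. All positions are on ce11 (WBcel235), and genes are called by their RefSeq symbols.

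The stretches between divergent H4 and H3 genes are shown first, because they are the shared upstream regions of the H3 and H4 genes and because their copies differ in how much of their sequence is unique. Capitals mark TATAAA and CTCCNCCT, or their reverse complements, and each stretch runs 5′ to 3′ from the H4 start to the H3 start. Those of his-60/his-59 (chrIV:7487993-7488248, plus strand), his-64/his-63 (chrIV:11406862-11407115, minus strand), his-1/his-2 (chrV:16042284-16042519, minus strand), his-14/his-13 (chrII:13819938-13820209, plus strand) and his-50/his-49 (chrV:8847705-8847942, plus strand) read as follows.
his-60/his-59: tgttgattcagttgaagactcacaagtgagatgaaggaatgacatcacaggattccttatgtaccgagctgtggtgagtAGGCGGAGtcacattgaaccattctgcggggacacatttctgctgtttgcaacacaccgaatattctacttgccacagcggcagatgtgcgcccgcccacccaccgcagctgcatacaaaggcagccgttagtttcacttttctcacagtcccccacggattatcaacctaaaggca
his-64/his-63: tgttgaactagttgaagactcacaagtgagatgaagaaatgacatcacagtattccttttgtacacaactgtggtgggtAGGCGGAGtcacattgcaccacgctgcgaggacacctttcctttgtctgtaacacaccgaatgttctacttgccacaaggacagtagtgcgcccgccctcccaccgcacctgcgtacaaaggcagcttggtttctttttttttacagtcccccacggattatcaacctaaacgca
his-1/his-2: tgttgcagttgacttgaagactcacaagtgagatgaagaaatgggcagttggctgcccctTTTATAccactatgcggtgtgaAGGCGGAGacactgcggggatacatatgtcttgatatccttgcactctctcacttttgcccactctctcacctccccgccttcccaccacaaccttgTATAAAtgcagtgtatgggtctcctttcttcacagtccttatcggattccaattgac
his-14/his-13: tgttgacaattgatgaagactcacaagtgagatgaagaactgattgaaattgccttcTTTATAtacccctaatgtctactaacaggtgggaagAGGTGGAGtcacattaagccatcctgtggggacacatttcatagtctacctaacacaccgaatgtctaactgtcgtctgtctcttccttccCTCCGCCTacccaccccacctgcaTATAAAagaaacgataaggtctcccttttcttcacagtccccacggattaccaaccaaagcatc
his-50/his-49: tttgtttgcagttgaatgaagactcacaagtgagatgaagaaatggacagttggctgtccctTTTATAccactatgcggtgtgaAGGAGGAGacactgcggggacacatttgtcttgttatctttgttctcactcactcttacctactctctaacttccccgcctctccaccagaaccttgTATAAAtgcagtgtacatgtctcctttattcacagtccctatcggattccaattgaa

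The his-14/his-13 stretch occurs 3 times without a mismatch over its 272 bp, also between his-10 and his-9 and between his-26 and his-25. The his-50/his-49 stretch of 238 bp is identical to that of his-28/his-27. None of these 5 stretches held a candidate summit. The his-60/his-59 and his-1/his-2 stretches, in which every 31-mer is found once in the genome, held none either. Between his-64 and his-63, where 81.2% of 31-mers are unique, lay 1 candidate with a signal of 8.59. Of the H4/H3 stretches not shown, 1 candidate lay in his-5/his-6 (signal 24.8, 79.1% unique) and 1 in his-31/his-32 (12.4, 100% unique). The remaining ones held none.

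Sequence at 4 summits that the values below turn on is shown next, with the coding exon of a histone gene in capitals and other bases in lower case, on the plus strand. The window at his-60 (chrIV:7487713-7487813) lies wholly in its coding exon, and the one at his-32 (chrIV:8334441-8334541) likewise. The windows past the end of his-59 (chrIV:7488762-7488862) and past the end of his-64 (chrIV:11407496-11407546, from the summit on) hold no histone coding base.
his-60 summit: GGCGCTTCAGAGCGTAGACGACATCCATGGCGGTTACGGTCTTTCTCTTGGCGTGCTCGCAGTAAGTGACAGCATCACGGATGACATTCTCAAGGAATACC
his-32 summit: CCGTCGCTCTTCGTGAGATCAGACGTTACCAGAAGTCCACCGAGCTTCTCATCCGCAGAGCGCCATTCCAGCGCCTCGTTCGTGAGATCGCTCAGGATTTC
past his-59: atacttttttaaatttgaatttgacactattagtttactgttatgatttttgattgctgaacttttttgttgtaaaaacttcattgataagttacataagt
past his-64: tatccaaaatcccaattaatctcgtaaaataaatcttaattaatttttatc

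Of the 72 histone genes, 7 had a conservative summit in their window (9.72%, interval 3.999 to 19.01), against 2.85% of all protein-coding genes. The optimal list also gave 7 of 72, against 4.25% of all genes. The 7 were his-59, his-60 and his-62 in one cluster, his-63 and his-64 in another, and the pair his-67 and his-68, and all 7 lay in clusters (7 of 67, 10.4%). They shared 4 distinct summits, so they are not 7 separate observations. Replicate 1's own thresholded list reached 4 of the 72 (his-59, his-60, his-63 and his-64, 5.56%), against 0.996% of all genes. Replicate 2's own list reached 0 of 72, where a count of 0 allows up to 4.17% (3 counts of 72), against 0.501% of all genes. The members were known to include conservative peaks when they were chosen, so no test was made of these shares.

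In the cluster his-61, his-62, his-60, his-59 of chromosome IV, the 2 conservative summits lay 1049 bp apart, on either side of the shared upstream region of the H4 gene his-60 and the H3 gene his-59. The summit inside his-60 (chrIV:7487645-7487880) had a signal of 62.8, with 32.8 in replicate 1 and 32.2 in replicate 2. It lay 229 bp from the his-60 start within the coding exon, 486 bp upstream of his-59 and 847 bp past the end of the H2B gene his-62. The summit past his-59 (chrIV:7488694-7488929) had a signal of 66.6, with 31.5 in replicate 1 and 35.6 in replicate 2, and lay 153 bp beyond the annotated end of his-59 and 820 bp upstream of his-60. Both replicates were close to each other at these 2 summits, and all 31-mers within 50 bp of both were unique. The second summit was in replicate 1's own list and not in the optimal list. The H2A gene his-61 was the 1 further member within 2 kb of a conservative summit, at 1546 bp. Candidates inside his-62 (signal 50.6, replicates 22.9 and 28.1) and inside his-61 (29.8, replicates 29.0 and 22.5) had IDR values of 0.0468 and 0.0362, above the conservative limit.

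The highest signal at any histone gene lay in the cluster his-66, his-65, his-63, his-64, where the H3 gene his-63 and the H4 gene his-64 shared it. This conservative summit (chrIV:11407378-11407613) had a signal of 83.5, with 54.7 in replicate 1 and 24.7 in replicate 2, and lay 69 bp past the annotated end of his-64 and 635 bp upstream of his-63. Replicate 1 was more than 2-fold higher there, and 54.9% of the 31-mers around the summit were unique. On the other side of the pair, a summit 198 bp past the end of his-63 had a signal of 74.7, with 46.0 in replicate 1 and 22.8 in replicate 2, in unique sequence. That summit was in the optimal list and, with an IDR of 0.0123, not in the conservative one. It lay nearer to cyp-31A2, at 162 bp, than to his-63. The high summits thus stood outside the 2 genes on both flanks, while 38.7 was reached inside his-63 and 8.59 between the starts. The H2B gene his-66 and the H2A gene his-65 of the same cluster shared a candidate of 44.5 (replicates 21.3 and 23.1), 119 bp past the end of his-66. The 4975 bp between his-65 and his-63 overlap cyp-31A2 and memi-3, and the 6 candidates there that lay over 1 kb from a histone gene had signals of 5.79 to 29.1.

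The H4 gene his-67 and the H2A gene his-68 form a divergent pair of their own. The conservative summit (chrI:9988444-9988679) lay in the coding exon of his-67, 570 bp upstream of his-68, in unique sequence. Its signal was 69.9, with 42.9 in replicate 1 and 32.5 in replicate 2, and its IDR of 0.00258 was the lowest among candidates at histone genes. The other 3 candidates of the pair had signals of 12.7 to 16.02, the highest of them in the 368 bp between the 2 starts. The pair thus had a single high summit, inside a gene.

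**Figure D1:**
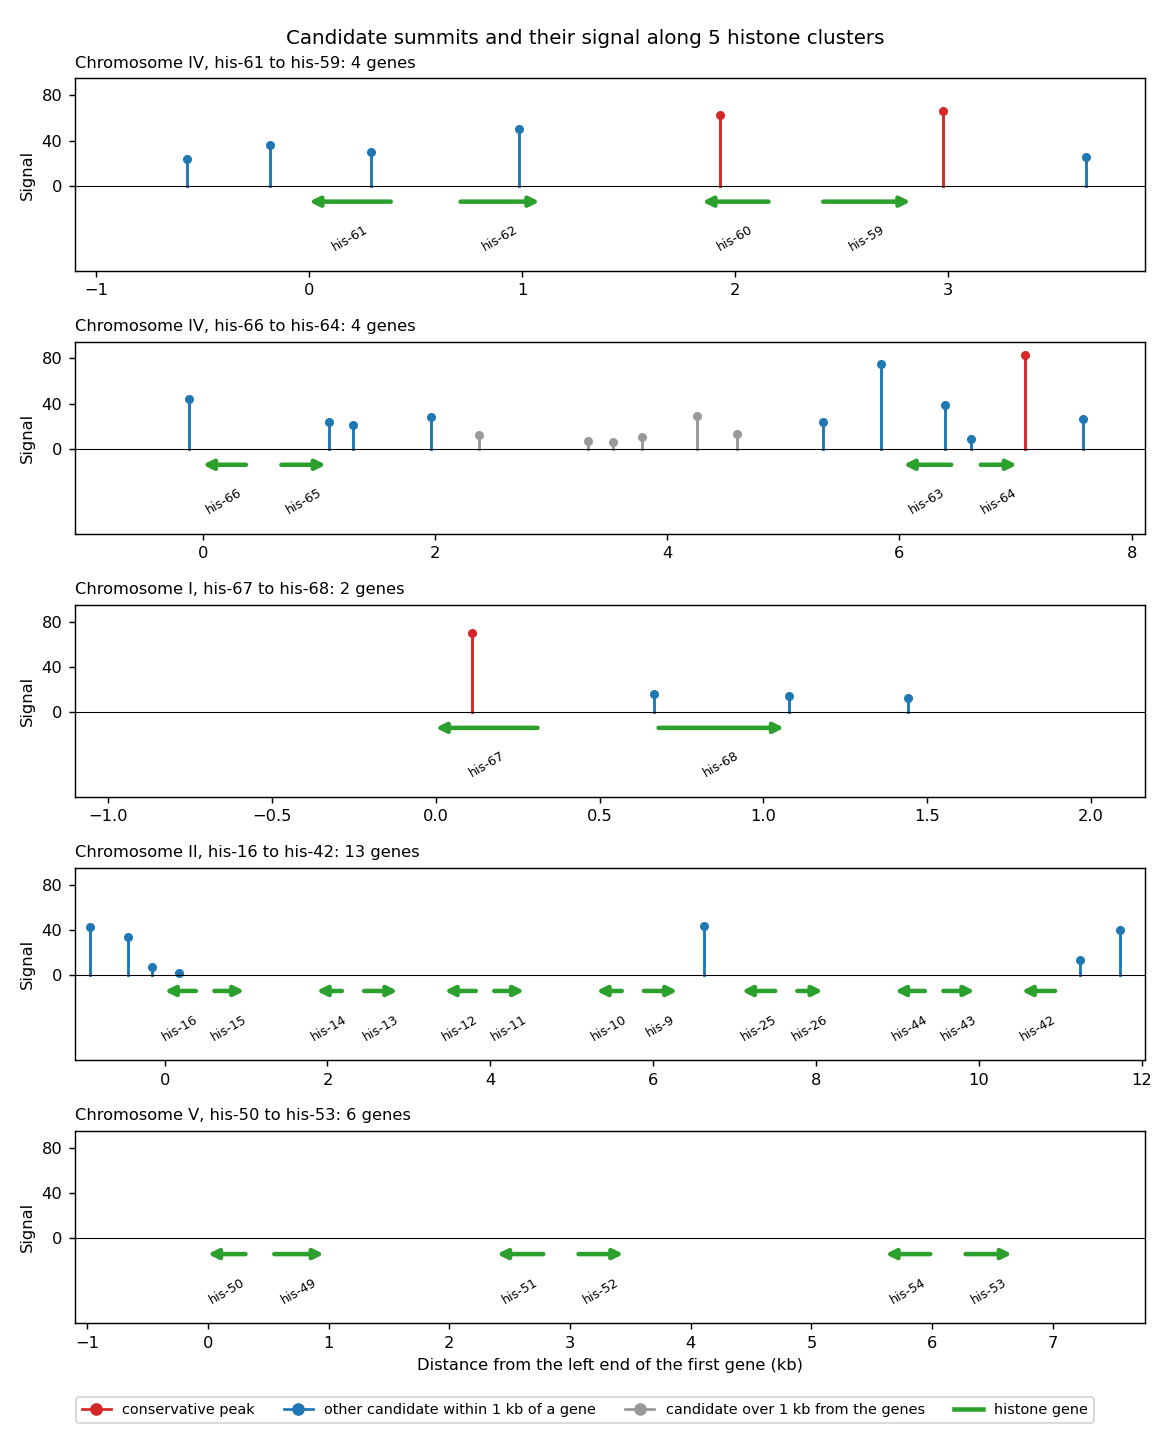
Candidate summits along 5 histone clusters: the horizontal axis gives the distance from the left end of the first gene in kb, the height the authors' signal, and arrows the histone genes with their direction. The 4 conservative peaks (red) stand inside or past the ends of genes and not between divergent starts, but are too few to tell places apart. The 6 genes his-50 to his-53 on chromosome V have no candidate.

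Just outside the conservative limit was the H2A gene his-57, which has introns. Its candidate lay in an intron, 521 bp from the start and 805 bp upstream of the H2B gene his-58, with a signal of 52.8, replicate values of 31.8 and 27.8, and an IDR of 0.0110. The conservative peak of highest IDR among those at histone genes, past his-64, had 0.00630. The divergent genes his-31 (H4) and his-32 (H3), with the H2A gene his-33, shared a candidate of 51.4 (34.5 in replicate 1, 20.8 in replicate 2) with an IDR of 0.0333. Its summit lay in the coding exon of his-32, where 90.1% of 31-mers were unique. Of the 96 distinct candidate summits at histone genes, 9 (9.38%) had an IDR of at most 0.05, against 2.05% of all candidates. Such a summit lay in the window of 13 of the 72 genes (18.1%), against 10.6% of all genes. Of the 9, 5 lay in an exon of a histone gene (his-67, his-60, his-32, his-61 and his-62), 1 in an intron and 3 past the end of a histone gene, and 8 of the 9 were on chromosome IV.

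Some candidate summit lay in the window of 52 of the 72 histone genes (72.2%, interval 60.4 to 82.1), against 91.3% of all protein-coding genes. Histone genes are short, with a median of 384 bp, against 2027 bp for all genes, so their windows are shorter too. Within 1 kb of the start alone, which gives all genes windows of equal length, 48 of 72 (66.7%) had a candidate, against 85.9% of all genes. Within 2 kb of the gene, 60 of 72 (83.3%) had a candidate, against 93.2% of all genes. Within 1 kb of the start 6 of 72 (8.33%) had a conservative summit, against 1.12% of all genes. A candidate lay inside the gene itself at 26 of 72 (36.1%), against 83.2% of all genes. The candidate density over the merged windows was 0.953 per kb, against 1.06 per kb in the genome, and of the 96 summits 54 lay in the windows of more than 1 histone gene.

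Among the 52 genes with a candidate, the highest signal in the window had a median of 37.2, quartiles of 30.04 and 50.7 and a range of 7.40 to 83.5. Over all genes with a candidate the median was 36.5, with quartiles of 29.6 and 44.0. The histone genes had a median percentile of 52.9 among these genes, and 29 of the 52 stood above the median of all. Neighbouring genes can share a summit, and the 52 genes had 37 distinct highest candidates. These values therefore count some summits more than once. The upper quartile was thus higher than that of all genes, while the medians were close. In windows of 1 kb either side of the start, which are equally long for all genes, the median percentile was 73.8. The same candidates had median signals of 21.4 and 19.8 in the 2 replicate columns.

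**Figure D2:**
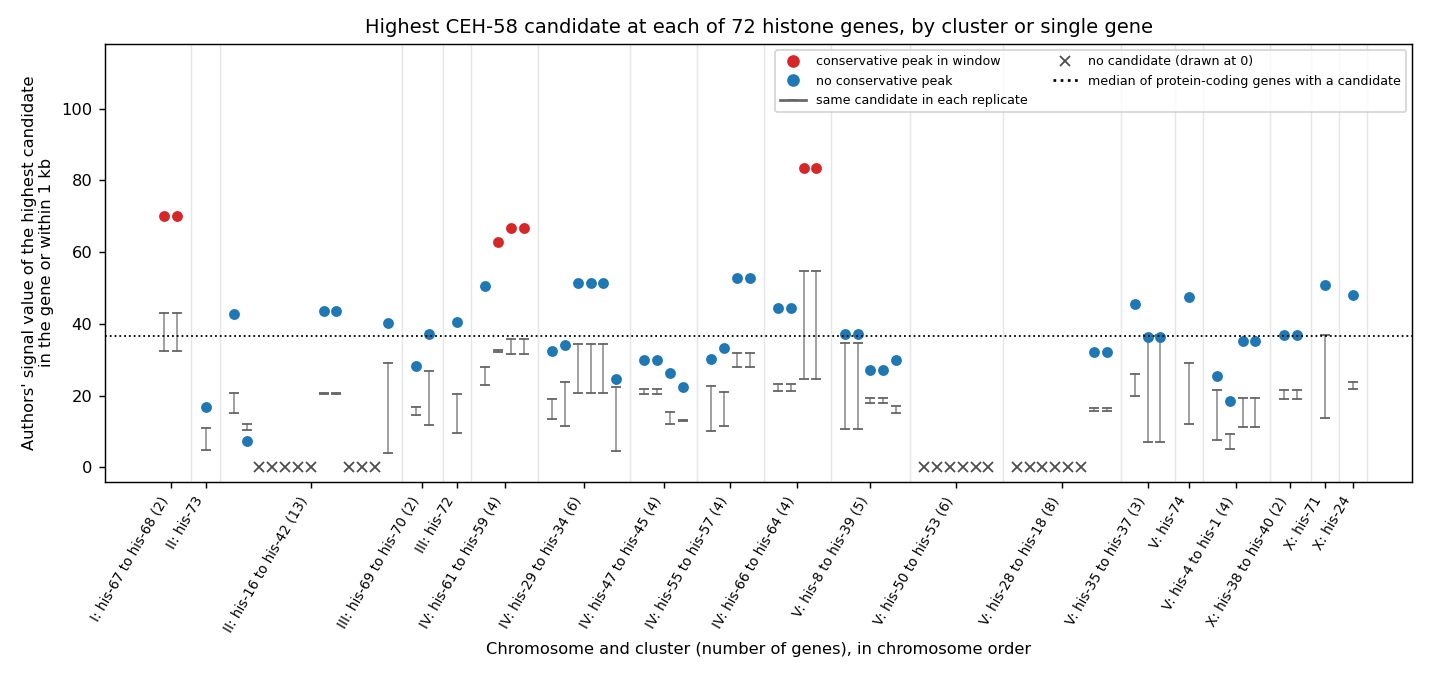
Authors' signal of the highest candidate in the window of each histone gene (dots), by cluster in chromosome order, with the same candidate's 2 replicate signals (bars) and crosses at 0 for genes without a candidate; the dotted line is the median of 36.5 for all protein-coding genes with a candidate. Genes with a conservative peak (red) reach 62.8 to 83.5, and the crosses fall in 3 clusters of chromosomes II and V.

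The H3 genes numbered 15, of which 3 had no candidate and 2 had a conservative summit, and the other signals had a median of 38.5 and reached 83.5 at his-63. The H4 genes numbered 16, of which 5 had no candidate and 3 had a conservative summit, with a median of 36.4 and the same highest value at his-64. Among the 17 H2A genes, 6 had no candidate and 1, his-68, had a conservative summit, with a median of 44.5 and a highest value of 69.9. Among the 16 H2B genes, 6 had no candidate and 1, his-62, had a conservative summit, with a median of 34.5 and a highest value of 62.8. For comparison, 91.3% of all protein-coding genes had a candidate and 2.85% a conservative summit. Since paired genes share summits, these classes are not separate samples, and every class of core histones had both genes with a conservative summit and genes with no candidate.

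The 5 genes of H3.3 type, his-69, his-70, his-71, his-72 and his-74, all had a candidate and none had a conservative summit. Over all protein-coding genes, 91.3% had a candidate and 2.85% a conservative summit. The single gene his-71 was highest at 50.9 (36.8 in replicate 1, 13.7 in replicate 2), with its only candidate 942 bp upstream of the start. At his-74 the highest candidate, 91 bp past its end in an exon of another gene, had a signal of 47.4, with 29.0 in replicate 1 and 11.998 in replicate 2. Replicate 1 was more than 2-fold higher at both genes. At his-72 a candidate of 40.6 lay in an intron, with 9.67 and 20.3 in the replicate columns. The replicates' own lists held 22.6 in replicate 1 and 20.3 in replicate 2 there. The clustered genes his-70 and his-69 had 37.2 and 28.1. The linker histone gene his-24 had a candidate of 47.9 in an exon, 70 bp from its start, with 21.8 in replicate 1 and 23.7 in replicate 2, and an IDR of 0.0794. Replicates were close at his-24, unlike at his-71 and his-74. At his-71 and his-74, the widest stretch without a candidate that reached into the window was 17.4 kb and 18.7 kb long. These were longer than 99.7% and 99.8% of all gaps between candidates. Unique 31-mers made up 99.97% and 86.7% of these stretches, which lie mostly outside the windows. The windows themselves were 99.9% and 99.8% unique and held 1 and 4 candidates.

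The 2 genes without a class in their RefSeq product name, his-39 and his-73, had highest signals of 29.97 and 16.7. The 4 lowest values belonged to his-15 (7.40), his-73 (16.7), his-3 (18.6) and his-45 (22.5). The his-15 candidate, 770 bp upstream, had 10.3 and 12.1 in the replicate columns, more than its own signal, and the same replicate values were also attached to a candidate of 2.19 inside his-16. In all, 6 of the 96 summits had the pair of replicate values of another summit.

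A candidate was found at 47 of the 67 clustered genes (70.1%) and at all 5 single genes, against 91.3% of all protein-coding genes. The clustered genes with a candidate, some of which share a summit, had a median highest signal of 36.8. The single genes had one of 47.4, a difference of -10.6. In replicate 1's own list the difference was -2.78 and in replicate 2's own list 3.42, so its sign depends on the replicate. None of the single genes had a conservative summit, where a count of 0 allows up to 60% (3 counts of 5), against 2.85% of all protein-coding genes. The windows of clustered genes had a median of 37.3% unique 31-mers and those of single genes 99.7%. The part of unique sequence in this difference was not tested.

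Genes with introns, 8 of the 72, all had a candidate, with a median highest signal of 46.5 and none with a conservative summit. Of all protein-coding genes, 91.3% had a candidate and 2.85% a conservative summit. Of the 64 genes without an intron, 44 had a candidate, with a median of 36.8, and 7 had a conservative summit. Among the genes with introns were his-35 (H2A, 45.6, with 19.9 in replicate 1 and 26.0 in replicate 2), his-41 (H2B) and his-37 (H4) of one cluster on chromosome V, of which the last 2 shared a candidate of 36.4 with 36.9 and 6.96 in the replicate columns. The his-35 candidate lay 279 bp past the end of his-35 and nearer, at 154 bp, to mdf-1. Windows of genes with introns had a median of 98.9% unique 31-mers, against 31.96% for those without.

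Clusters differed in their highest candidate. Besides the clusters of his-59, his-63, his-67, his-57 and his-32, the cluster of 13 genes on chromosome II reached 43.5 (20.3 in replicate 1, 20.7 in replicate 2) at a summit between the convergent H3 genes his-9 and his-25. The cluster his-8, his-7, his-6, his-5, his-39 reached 37.2 between the starts of his-8 and his-7, with 34.7 and 10.8 in the replicate columns. The pair his-38 and his-40 reached 36.8 (19.1 in replicate 1, 21.4 in replicate 2), and the cluster his-4, his-3, his-2, his-1 reached 35.3, inside his-1. The cluster of his-17 and his-18 reached 32.2 inside his-17, and that of his-45 to his-48 reached 30.004, shared by his-47 and his-48. This last summit lay 285 bp past his-47 and nearer, at 135 bp, to edg-1. The cluster his-49 to his-54 had no candidate.

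All 20 histone genes without a candidate were clustered, and each has a coding sequence identical to that of another histone gene, as have 36 of the 72 in all. All annotated coding segments of a gene were joined for this, which gave 822 bp at his-57 against 381 bp at his-47. A shorter identical copy within his-57 could thus be missed. The names of the 20 genes follow. They were his-14, his-13, his-12, his-11, his-10, his-26, his-44 and his-43 of the 13 genes on chromosome II, all of his-50, his-49, his-51, his-52, his-54 and his-53, and his-28, his-27, his-21, his-22, his-20 and his-19 of the 8 genes of a second cluster on chromosome V. They comprise 6 H2A, 6 H2B, 3 H3 and 5 H4 genes. Unique 31-mers made up 0 to 10.5% of their windows, with a median of 0, against 11.8% to 99.9% and a median of 63.9% at the 52 genes with a candidate. With 50-mers in place of 31-mers the highest share among the 20 was 10.6%. The 2 sets of windows thus did not overlap in the share of unique 31-mers, but 10.5% and 11.8% lie close together. Over all protein-coding genes the 2 sets did overlap. There, windows without a candidate were 0 to 100% unique, with a median of 96.9%. Windows with a candidate started at 0.469% and had a median of 98.9%. The part of read placement in the lack of candidates was not tested.

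The 6 genes his-50 to his-53 on chromosome V (chrV:8847393-8854053) and the 6 genes his-28 to his-19 (chrV:8889488-8896148) are 2 copies of one block of 6661 bp with 0 mismatches, 42095 bp apart. The identical stretch runs on to 15254 bp, and neither copy contained a candidate. Next to the second copy, the H3 gene his-17 and the H4 gene his-18 had 3 candidates between them, the highest at 32.2. There 43.7% of 31-mers around the summit were unique, and the replicate signals were 15.7 and 16.4. The gaps between candidates that hold the 2 copies were 43.0 kb and 42.2 kb long, and 2.12% and 0.0830% of their 31-mers were unique.

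Across the 72 windows the share of unique 31-mers and the number of candidates per kb were correlated (Pearson's r 0.777, Spearman's rho 0.779), as a description only, since neighbouring windows overlap and copies share sequence. Over all 19973 genes the values were 0.253 and 0.134. In windows under 25% unique, 10 of 30 histone genes (33.3%) had a candidate, against 32.6% of all such genes (87 of 267, with these 30 among them). In the 4 higher classes of unique sequence each of the 11, 8, 16 and 7 histone genes had one, where all genes ranged from 82.6% to 93.0%. The share in the lowest class was thus close to that of all genes. Of all genes without a candidate, 979 of 1741 lay in windows at least 95% unique, a class that held 13963 of the 19973 genes. The class under 25% held 267 genes, and 180 of these had no candidate. Candidates inside histone genes were found at 26 of the 37 genes with any unique 31-mer and at 0 of the 35 with none. The highest signal had a median of 45.6 at the 7 histone genes with windows at least 95% unique, against 36.7 for all such genes.

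**Figure D3:**
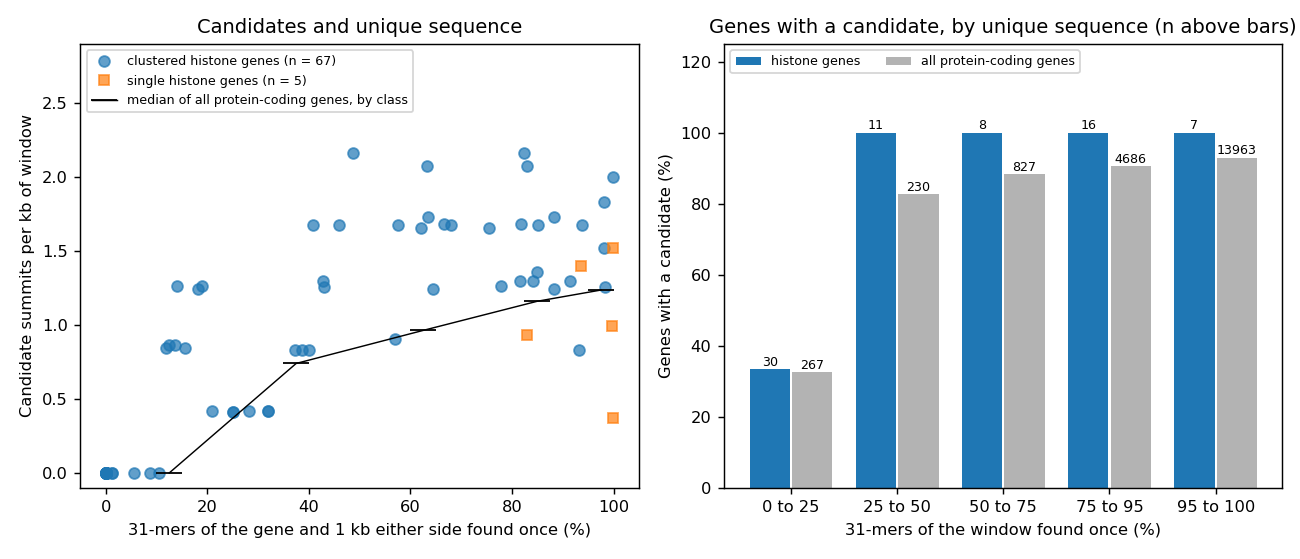
Left, candidate summits per kb of window against the share of 31-mers found once in the genome, for clustered and single histone genes, with the median of all protein-coding genes in 5 classes. Right, the percent of genes with a candidate in the same classes, histone genes beside all genes, with the number of genes above each bar; both are low in the class under 25%, at 33.3% and 32.6%.

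By position, 41 of the 96 summits lay in an exon of a protein-coding gene (42.7%, interval 32.7 to 53.2), 12 in an intron (12.5%) and 43 outside protein-coding genes (44.8%). Over all candidates the shares were 38.3%, 28.5% and 33.2%. Of the 96, 27 lay in an exon and 3 in an intron of a histone gene, and 23 inside another protein-coding gene only. Relative to the nearest histone gene, 30 lay inside it, 12 upstream at a median of 129 bp and 54 downstream at a median of 286.5 bp. Gene layout limits these counts. Divergent starts lie a median of 258 bp apart, so little sequence there is upstream of its nearest gene, while windows reach 1 kb downstream. The length of sequence in each place was not computed, so the counts show no preference for a place. The median signals of these places were 28.3, 26.7 and 25.7, and differed little. Every conservative summit was inside a gene or past its end, 2 in each case, and 4 summits are too few to tell places apart.

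Of the 31 pairs of neighbouring histone genes that are divergent, 7 had a candidate between their starts, in stretches of 227 to 368 bp. Their signals ranged from 8.59 to 37.2, and none was conservative. Only 4 of the 96 summits at histone genes were conservative, and divergent stretches made up 8.35 kb of the 100.7 kb of merged windows. So few summits cannot show whether these stretches differ from other places. The 7 stretches with a candidate were all among the 11 divergent stretches with at least 50% unique 31-mers. In 17 of the 31 stretches no 31-mer was unique. Of the 19 convergent pairs 7 had a candidate, in stretches of 577 to 4975 bp. At least 50% of 31-mers were unique in 7 convergent stretches, and 5 of these had a candidate. Those between his-48 and his-46 and between his-56 and his-58 had one at only 3.56% unique, with signals of 26.3 and 33.2. Candidates per kb were 0.838 in divergent and 0.734 in convergent stretches, and 1.07 in the 3 stretches between genes of the same direction. Of the 18 convergent candidates, 11 lay in the longest stretch, between his-65 and his-63, and without it the density in the other 18 convergent stretches was 0.358 per kb.

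Summits in unique sequence, with every 31-mer within 50 bp found once, numbered 59 of 96 (61.5%, interval 51.0 to 71.2), against 87.0% of all candidates. Inside histone genes 10 of 30 summits were unique (33.3%), and outside them 49 of 66 (74.2%). Where the sequence is not unique, which copy the reads came from is uncertain. Median GC content within 50 bp was 42.6% at the 96 summits, against 39.6% over all candidates.

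The 2 replicate signals of a summit differed by a median of 0.61 on the log2 scale (absolute ratio) at histone genes, against 0.63 over all candidates. More than a 2-fold difference was seen at 31 of the 96 (32.3%), against 29.1% of all candidates. By these 2 measures the spread between replicates at histone genes was close to that in the genome. Both replicates' own candidate lists held a peak that overlapped the summit in 43 of the 96. The same share was not computed over all candidates, so this count cannot be set against the genome.

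**Figure D4:**
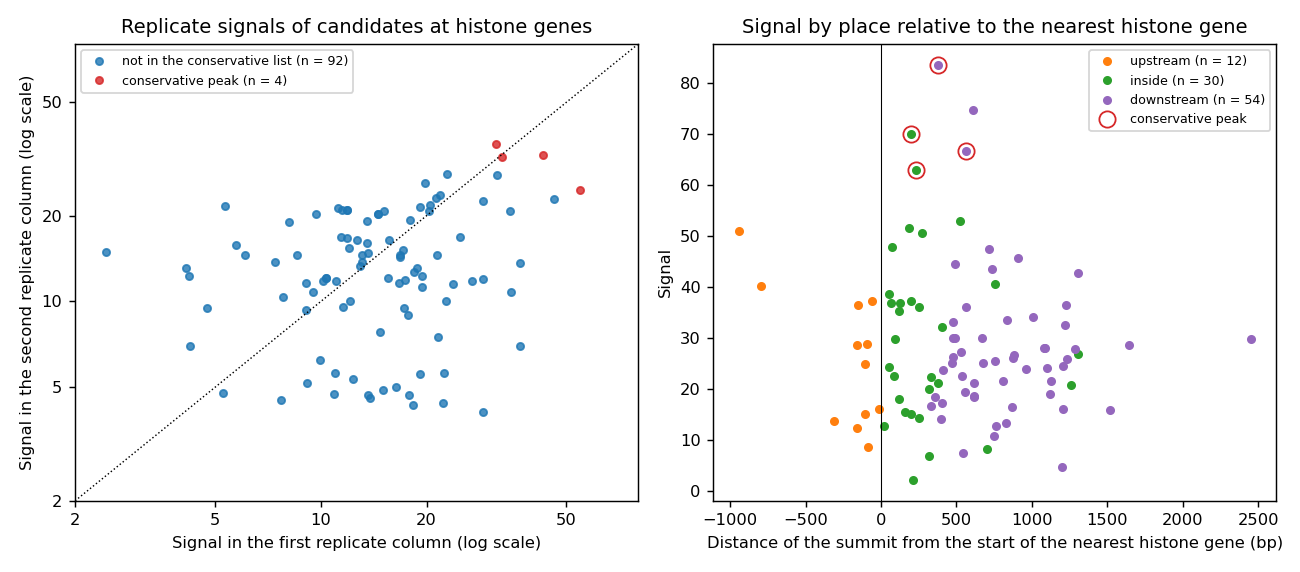
Left, signals of the 96 candidate summits at histone genes in the 2 replicate columns (log scales, dotted line of equality). Right, signal against the distance of the summit from the start of the nearest histone gene in bp, negative upstream; the 4 conservative peaks lie 201 to 563 bp past the start, and no candidate upstream of the nearest gene exceeds 50.9.

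Short sequence elements in the stretch from 250 bp upstream to 50 bp downstream of each start set histone genes apart from other genes by count. CTCCNCCT, part of an element described upstream of worm histone genes, occurred on either strand at 53 of 72 histone genes (73.6%), against 5.05% of all protein-coding genes. It was present at all 20 genes without a candidate, many of them exact copies, and at 33 of the 52 with one (63.5%). TATAAA, the core of the TATA box, occurred at 47 of 72 (65.3%), against 37.9%. TAATTA and TTAATT, which hold the core bound by many homeodomains and may overlap each other, occurred at 1 (1.39%) and 4 (5.56%) of 72, against 15.5% and 42.8% of all genes. Within 50 bp of the 96 summits, TAATTA occurred at 2 (2.08%) and TTAATT at 11 (11.5%), against 3.301% and 10.6% of all candidates. CTCCNCCT occurred at 5 of the 96 (5.21%), against 1.68%. The stretches are paired and copied, so these counts are not independent, and a match of letters is not a measured site.

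Of 23 genes linked to histones outside the numbered series (variants, linker histones, chaperones and the like), 21 had a candidate (91.3%), against 91.3% of all protein-coding genes. Their median highest signal was 41.2, against 36.5 for all genes with a candidate. A conservative summit was found at 1 of the 23 (4.35%), against 2.85% of all genes. Among them nap-1, a nucleosome assembly protein, had 2 conservative summits and the highest signal of 122.8. The H2A.Z gene htz-1 had an optimal summit of 63.7. The other genes had no summit in a thresholded list, and chaf-1 and hil-2 had no candidate.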

How the data were processed

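ChIP-seq of 2 biological replicates gave the deposited peak lists, on assembly ce11 per the labels. Per the labels' file notes, the authors derived them from alignments of these libraries with a control alignment, and the thresholded lists also from 1 further input that is not described. Not given in the sources used here are the aligner and the peak caller. The authors deposited a signal value per peak, without a stated scale, which was used only to rank and describe peaks. IDR values were computed from the −log10 IDR that the authors deposited. The IDR score of the conservative list, a scaled log with a maximum of 1000, was deposited by the authors as well. In the list that compares the replicates, the replicate columns carry no replicate number. A value given for replicate 1 or 2 is the highest among that library's own candidates that share at least 1 bp with the peak.

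Summits were placed in windows of WBcel235 genes (Ensembl release 115). Ensembl gives the 72 genes only 50 distinct names, and 22 differ from the RefSeq symbol matched by WormBase ID. Histone classes come from RefSeq product names, with his-24 as H1, and not from protein sequence as first planned. A 31-mer is unique if found once in the genome on either strand. Sequences and motif windows were read from the reference genome, and no promoter or protein table was used. The steps were tested on simulated data. Genes were named if they had a summit in a thresholded list within 1 kb, or within 2 kb, had no candidate, were among the 4 highest or 4 lowest, or led their class, cluster or the single genes. Other genes were picked for naming with their values in view. The members, gene lists and motifs were chosen with earlier results of these data known. Alternatives were other windows, lists, cluster distances and word lengths, and each replicate's own lists. The work used Python 3.11.15 with pandas 2.3.3, numpy 2.4.6, matplotlib 3.10.9 and scipy 1.17.1.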

Additional observations from a re-analysis of the deposited data

How the results depend on the processing

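With summits counted only inside the gene, 36.1% of histone genes had a candidate (83.2% of all genes) and 2.78% a conservative summit (2.99% of clustered genes). The median highest signal was then 33.7, and 90% of summits were exonic and 33.3% unique. Windows of 2 kb gave 83.3% with a candidate (93.2% of all genes), a median signal of 42.7 and a median percentile of 63.7. The percentile was 73.8 in windows around the start and 51.1 in the other whole-series candidate list. Candidates with an IDR of at most 0.05 reached 18.1% of histone genes (10.6% of all genes), and 55.6% of their summits were exonic. Peaks of maximal IDR score reached 2.78% of histone genes and 2.99% of clustered ones. No share of all genes is given for these peaks or for conservative summits inside the gene, so these values cannot be set against the genome. With 50-mers, 75% of summits were unique. With each replicate's own lists, conservative summits were replaced by that replicate's thresholded list, which reached 0 to 5.56% of histone genes and 0 to 5.97% of clustered genes. The median signal was then 20.7 to 24.9, the percentile 61.5 to 63.9, and clustered minus single -2.78 to 3.42, so this difference changed sign with the library. The causes were not tested. Single genes had no conservative summit under any alternative, and cluster distances of 2 or 10 kb gave the same 67 clustered genes. No paired analysis was possible because there is 1 group and no test. Depth is unknown, and the control data were not analysed here, so a signal cannot be set against background.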
